A study of Oryza sativa Japonica Group with 10 samples.

Results

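The comparison described here set rice seedlings held for 48 h in low phosphate against seedlings grown with sufficient phosphate. The arrays were taken by their sample titles: 2 arrays of 48 h and 2 control arrays, which makes 4 of the 10 arrays of the series. The other 6 arrays, 2 each at 6, 24 and 72 h of low phosphate, entered the filter on signal and the estimate of spread. They also entered a second comparison, which asked what set 48 h apart from those times. All seedlings were of the japonica cultivar Zhonghua 10, were 1 week old per the series title, and the tissue label is seedlings with no organ named, so RNA of shoots and roots was measured together. RNA was made with TRIzol from independent plants, and the labels call the arrays of a group biological replicates. The labels do not say when the control was harvested, and they name no sufficient-phosphate group of 48 h. In every difference from the control, low phosphate, the age of the seedlings and the hour of harvest cannot be told apart.

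Phosphate is needed for nucleic acids, membranes and energy transfer, and rice answers a shortage through PHR transcription factors, which switch on transporters and lipid-exchanging enzymes while SPX-domain proteins restrain them. Roots and shoots also adjust growth, and cell division and cell expansion depend on separate sets of genes: the replication and cyclin genes for division, and expansins, cellulose synthases and water channels for expansion. Jasmonate is a lipid-derived hormone that governs many defence genes in leaves and roots, and the TIFY proteins that repress its signalling are themselves switched on by it.

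Each array gave 1 signal for each of 57381 probe sets, and the median signal was 47.6 and 50.1 on the control arrays and 49.0 and 47.6 at 48 h. Log2 signals correlated across probe sets with r = 0.917 between the control arrays, 0.938 between the 48 h arrays and 0.913 to 0.915 between a control and a 48 h array. The log2 ratio of 3′ to 5′ signal, a check on labelling and RNA quality, was 2.06 and 2.02 for rice actin in the control and 2.54 and 2.30 at 48 h. For rice Gapdh it was 1.89 and 1.61 in the control and 1.67 and 1.49 at 48 h. The bacterial thr transcript stood apart: its 3 probe pairs read 1.40 to 2.13 higher at 48 h than in the control, and one of them stood at 4.60 and 3.44 in the control and 6.27 and 6.03 at 48 h. Actin stood at 3.23 and 3.68 at 6 h and at 5.34 and 6.86 at 72 h, both times that enter the second comparison. The part of these ratios in the results was not tested, except that the counts were recomputed without the 72 h arrays, a choice made after the ratios were seen. Both tissues were present in both groups: the light-harvesting gene LHCP read 12437 and 12224 in the control and 12802 and 12134 at 48 h, and the root silicon channel Lsi1 read 20794 and 21309 against 20826 and 19781. Neither gene passed the test between the groups.

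Of 34355 probe sets tested, 6667 rose at 48 h (19.4%) and 4293 fell (12.5%), or 31.9% together, counting adjusted p under 0.05. Changes are log2 differences of group means, 48 h minus control, given ± SE with n = 2 arrays per group. The SE comes from the fit of all 5 groups, not from the arrays of the 2 groups compared alone. For a gene whose own arrays differ widely it can understate their spread. A change of at least 1 was reached by 1585 of the rises and 1034 of the falls, and the median change over all probe sets tested was 0.11. With 1 probe set per gene, 4591 of 16081 genes rose (28.5%) and 2767 fell (17.2%), with a median change of 0.14; the counts of gene lists below are to be read against these shares. Groups that did not overlap made up 39.6% of the probe sets in the upward and 27% in the downward direction. The submitters called genes by a fold change of 2 with no test; applied to the group means, that rule took 6613 probe sets up (11.5% of 57258) and 8526 down (14.9%), of which 1572 and 1032 also passed the test. Without 48 h replicate 2 the rises numbered 4426, and without the 72 h arrays, which enter only the spread here, 6766 rose and 4391 fell. In a whole seedling, fewer cells of a type and less RNA per cell cannot be told apart.

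The size of the change depended on how bright a probe set was. In the brightest of 10 equal groups of probe sets, with mean signals from 3018.1 upward, the median change was -0.12 and 44.5% of probe sets fell, while in the group between 231.9 and 426.8, the median was 0.23 and 10.6% fell. After quantile normalization, which gives all arrays the same distribution, both medians were near 0, at 0.04 and 0.05. With it 5300 probe sets rose and 4283 fell. Where quantile normalization ended or turned the call of a bright gene named here, its value is given. Of 24 ribosomal protein genes, most of them very bright, 8 rose and 8 fell as deposited, and 16 rose and 0 fell after quantile normalization. Likewise 8 of 19 photosynthesis genes rose and 4 fell as deposited, and 0 fell after quantile normalization. Because the direction turns with the scaling, no direction is given for either list.

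**Figure D1:**
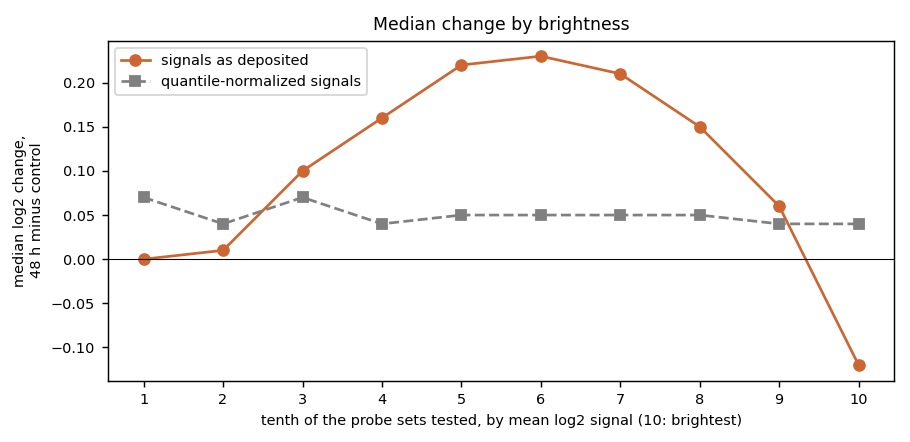
Median log2 change (48 h minus control, vertical axis) over the probe sets tested, in 10 equal groups from dimmest to brightest by mean log2 signal, for signals as deposited (circles) and after quantile normalization (squares). The deposited signals rise to a median of 0.23 in the group from 231.9 to 426.8 and drop to -0.12 in the brightest, and the normalized ones stay at or below 0.07.

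The largest rises among bright, named genes included water channels, expansins, transporters and a peroxidase. OsTIP2;1 (LOC4330207), a water channel of the vacuole membrane, read 168.8 and 181.9 in the control and 4676 and 5206 at 48 h, a rise of 4.82 ± 0.08 (adjusted p = 9.02e-12), or 28.2-fold; its other probe set rose by 3.59. OsPIP2;5 (LOC4343121), a water channel of the plasma membrane, went from 122.6 and 124.5 to 2282 and 2284, a rise of 4.21 ± 0.07 (adjusted p = 9.02e-12). In both genes the 48 h arrays stood far above the control arrays, and the arrays of a group lay close together. PRX74 (LOC4339222), a class III peroxidase of the kind secreted to the cell wall, read 5.8 and 7.7 in the control and 419.3 and 439.4 at 48 h. Both control arrays were under 23.9, the signal level of the filter, so its rise is given as at least 4.17 (adjusted p = 8.08e-09).

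OsVIT2, which carries iron into the vacuole, read 51.7 and 19.2 in the control and 473.4 and 526.9 at 48 h. Its rise was 3.99 ± 0.38 (adjusted p = 8.85e-06), and 4.70 or 3.27 without control replicate 1 or 2. The lipid-transfer protein gene LTP110-A rose by 3.64 ± 0.18 and the CASP-like membrane protein gene OsCASPL1U3 by 2.62 ± 0.16. Lsi6, which unloads silicon from the xylem, read 24.3 and 46.1 in the control and 247.0 and 206.8 at 48 h, a rise of 2.76 ± 0.36 (adjusted p = 1.11e-04). AP25 rose by 2.71 ± 0.26. In each of these genes the lower 48 h array was above the higher control array, which the rule for naming them required.

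The largest falls among bright, named genes whose groups did not overlap included those of AMY3D and OsICL. AMY3D (LOC4345814), an α-amylase that rice makes when sugar runs short, read 3703 and 3434 in the control and 149.9 and 164.9 at 48 h, and fell by 4.50 ± 0.14 (adjusted p = 1.31e-09), a level 22.7-fold higher in the control. OsICL (LOC4343441), the isocitrate lyase of the glyoxylate cycle by which seedlings turn stored oil into sugar, read 7022 and 7161 against 516.1 and 535.1 and fell by 3.75 ± 0.07 (adjusted p = 1.52e-11). Both genes were low on both 48 h arrays. The calmodulin-like genes CML15, CML16 and CML31 fell by 3.01 ± 0.09, 2.55 ± 0.08 and 2.02 ± 0.10. OsGS1;3, a cytosolic glutamine synthetase, fell by 2.48 ± 0.33, the homeodomain factor OsHox24 by 2.13 ± 0.20, and OsPM19L1, a membrane protein gene, by 2.66 ± 0.23. Osem, an Em-type LEA protein of maturing seeds, fell by 1.94 ± 0.34 (adjusted p = 8.30e-04).

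**Figure D2:**
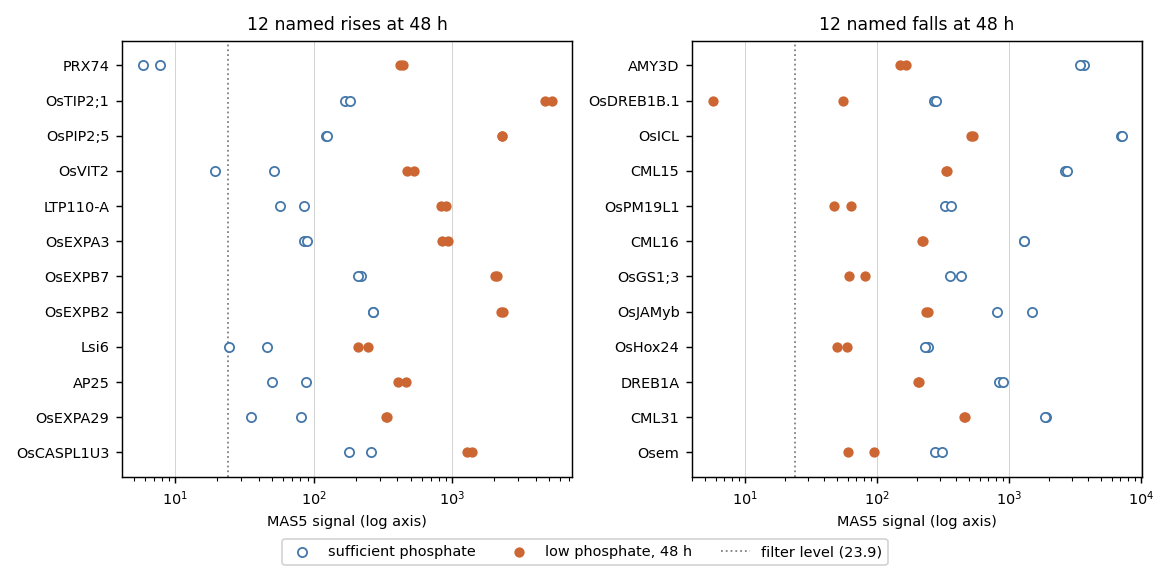
MAS5 signal (horizontal log axis) of the 12 named rises (left) and 12 named falls (right) on each control array (open circles) and each 48 h array (filled circles), with the filter level of 23.9 as a dotted line. In every gene shown both arrays of one group lie above both of the other, which the choice of genes required. OsTIP2;1 rises from 168.8 and 181.9 to 4676 and 5206, and AMY3D drops from 3703 and 3434 to 149.9 and 164.9.

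Genes of DNA replication were among those that rose. Of 28 measured genes 15 rose and 0 fell (limma; 53.6% against 28.5% of all genes), with a median change of 0.70. After quantile normalization 11 rose and 0 fell. For 4 of the 15 rises the control lay under the filter level and only a lower bound is given. OsMCM2, a subunit of the ring-shaped helicase that unwinds DNA ahead of the replication fork, read 30.1 and 39.4 in the control and 181.1 and 144.1 at 48 h, a rise of 2.23 ± 0.31 (adjusted p = 1.69e-04). Its partner OsMCM5 read 5.7 and 6.1 against 80.5 and 96.1, a rise of at least 1.88 (adjusted p = 7.49e-04). OsMCM4 read 5.3 and 1.9 against 83.8 and 60.8, a rise of at least 1.58 (adjusted p = 4.23e-04). OsMCM4 and OsMCM5 were under the filter level of 23.9 on both control arrays and OsMCM2 was above it, and all 3 were above it on both 48 h arrays. The other helicase subunits did not pass: OsMCM6 read 3.3 and 23.8 against 63.0 and 48.8 (adjusted p = 0.0529), OsMCM7 changed by 2.64 ± 1.23 and OsMCM3 by 1.11 ± 0.84.

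ORC1, the subunit of the complex that marks replication origins, read 10.0 and 5.5 in the control and 72.5 and 82.0 at 48 h, a rise of at least 1.69 (adjusted p = 0.00314). OsORC2 rose by 0.70 ± 0.15 and OsORC4 by 1.05 ± 0.30, although the other probe set of OsORC4 did not pass. At the fork, OsFEN-1, the nuclease that trims Okazaki fragments, went from 366.1 and 324.5 to 805.7 and 828.6, a rise of 1.25 ± 0.13 (adjusted p = 2.21e-05). The DNA polymerase delta genes OspolD1 and OspolD2 rose by 0.70 ± 0.19 and 1.07 ± 0.20, and the clamp loader subunits OsRFC1 and OsRFC4 by 0.52 ± 0.09 and 0.62 ± 0.08. The sliding clamp itself, OsPCNA, read 1169 and 1036 against 1895 and 1589 and did not pass (0.66 ± 0.24, adjusted p = 0.0527). OsRPA70b, which binds single-stranded DNA, rose by at least 1.40 (adjusted p = 0.00861), a call that ended without 48 h replicate 1 (0.0631) or 2 (0.063). OsRFC2, OsRFC3, OsRPA14, OsRPA32-2 and OsFEN-1b differed by -0.09 to 0.07 and did not pass. Without 48 h replicate 2, 9 replication genes rose. Of 6 measured histone genes, 5 of them for H2B, 2 rose, by 0.35 at most, and both calls ended without 48 h replicate 2 or control replicate 2.

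Cell-cycle genes also rose in part. Of 57 cyclins, cyclin-dependent kinases, their inhibitors and kinesin motors, 27 rose, 2 fell and 28 did not pass, with a median change of 0.61. The share that rose was 47.4%, against 28.5% of all genes. After quantile normalization 20 rose and 2 fell. CYCB1-1, a cyclin of cells entering mitosis, read 34 and 2.3 in the control and 160.2 and 175.8 at 48 h, a rise of 4.25 ± 0.90 (adjusted p = 0.00326). The control arrays differed widely, and the rise was 6.19 without control replicate 1 and 2.30 without control replicate 2. CYCB2-1 rose by 1.70 ± 0.40, and CDKB2-1, a mitotic kinase particular to plants, went from 55.6 and 28.0 to 153.8 and 135.8, a rise of 1.87 ± 0.41 (adjusted p = 0.00393). CYCD4-1, a cyclin that admits cells to division, went from 312.4 and 286.1 to 1118 and 970.1, a rise of 1.80 ± 0.12 (adjusted p = 5.21e-07). OsRBR1, a retinoblastoma protein that holds replication genes back, rose by 1.99 ± 0.34. KRP6, an inhibitor of cyclin-dependent kinases, rose by 1.68 ± 0.15. The kinesins KIN7K, KIN14H and KIN13B rose by 1.65 ± 0.18, 1.64 ± 0.19 and 1.63 ± 0.22. SMR1, another kinase inhibitor, read 9011 and 9195 against 5522 and 5491 and fell by 0.73 ± 0.05. In each of these genes both arrays of one group were above both of the other.

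Expansins, which loosen cell walls so that cells can enlarge, had the highest median of the growth lists. Of 24 measured expansins 15 rose (62.5% against 28.5% of all genes), 2 fell (8.33% against 17.2%) and 7 did not pass. The median change was 1.19, or 1.09 with dim genes set at their bounds. In 2 of the 15 rises both control arrays were under the filter level. After quantile normalization 15 rose and 2 fell as well. OsEXPB7 went from 218.3 and 207.2 to 2046 and 2092, a rise of 3.28 ± 0.09 (adjusted p = 4.01e-10). OsEXPB2 went from 266.0 and 266.7 to 2306 and 2230, a rise of 3.09 ± 0.08 (adjusted p = 3.91e-10), and OsEXPA3 from 84.3 and 89.7 to 929.3 and 842.2, a rise of 3.35 ± 0.16. For all 3 genes the arrays of a group lay close together and the 48 h arrays far above the control. OsEXPA29 read 35 and 80.4 against 332.7 and 339.5, a rise of 2.66 ± 0.66 (adjusted p = 0.00865), and this call ended without control replicate 1 (0.0803), without 48 h replicate 1 (0.0512) or 2 (0.0556), and without an intensity trend (0.0567). Both falls were in expansin-like genes of the A group: OsEXLA2 read 1764 and 1666 against 475.1 and 593.8 and fell by 1.69 ± 0.12, and OsEXLA1 fell by 0.50 ± 0.06.

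Genes of cell wall polymers and of the cytoskeleton rose in larger shares than the 28.5% of all genes. Of 44 cell wall synthesis and remodelling genes 19 rose (43.2%) and 1 fell (2.27%, against 17.2% of all genes). Their median change was 0.67 (0.60 with bounds). After quantile normalization 16 rose and 2 fell. The cellulose synthase gene OsCesA8 went from 1066 and 968.8 to 2251 and 2230, a rise of 1.14 ± 0.07 (adjusted p = 2.19e-07), and OsCesA1 rose by 0.98 ± 0.12 and OsCesA6 by 0.85 ± 0.14. OsCslA1, of a family that makes mannan backbones, rose by 1.90 ± 0.13, and OsGLU2 by 1.46 ± 0.07; OsCslC1 fell by 0.70 ± 0.13. Among 15 tubulin and actin genes 9 rose (60%) and 3 fell (20%), and after quantile normalization 12 rose and 2 fell. The β-tubulin gene TUBB4 went from 176.1 and 204.8 to 910.3 and 962.1, a rise of 2.30 ± 0.12 (adjusted p = 5.02e-08), and its other probe set rose by 0.75. OsTUB8 rose by 2.11 ± 0.27 and TUBB1 by 1.34 ± 0.10. The 3 falls were in very bright genes: ACT7 read 37492 and 38243 against 25722 and 24354, a fall of 0.60 ± 0.04 whose call ended with quantile normalization (0.153), while actin-6 and TUBB3 fell by 0.52 ± 0.07 and 0.46 ± 0.05.

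The water channels split. Of 23 aquaporins 9 rose (39.1%) and 5 fell (21.7%), against 28.5% and 17.2% of all genes, with a median of 0.06. Beside OsTIP2;1 and OsPIP2;5, the plasma membrane channel OsPIP2;4 went from 1027 and 1009 to 5310 and 5060, a rise of 2.35 ± 0.05 (adjusted p = 6.15e-11), and the vacuolar channel OsTIP1;2 from 1353 and 1575 to 4217 and 4940, a rise of 1.64 ± 0.12. OsPIP1;3 rose by 0.77 ± 0.04. The seed-type vacuolar channel TIP3-1 read 450.8 and 484.3 against 245.7 and 234.8 and fell by 0.96 ± 0.15 (adjusted p = 3.86e-04). OsTIP1;1 read 32110 and 31808 against 21623 and 21178, a fall of 0.58 ± 0.04 whose call ended with quantile normalization (0.113), and OsTIP2;2 fell by 0.34 ± 0.04 as deposited and stood 0.06 higher at 48 h with quantile normalization. After that normalization 12 aquaporins rose and 3 fell.

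**Figure D3:**
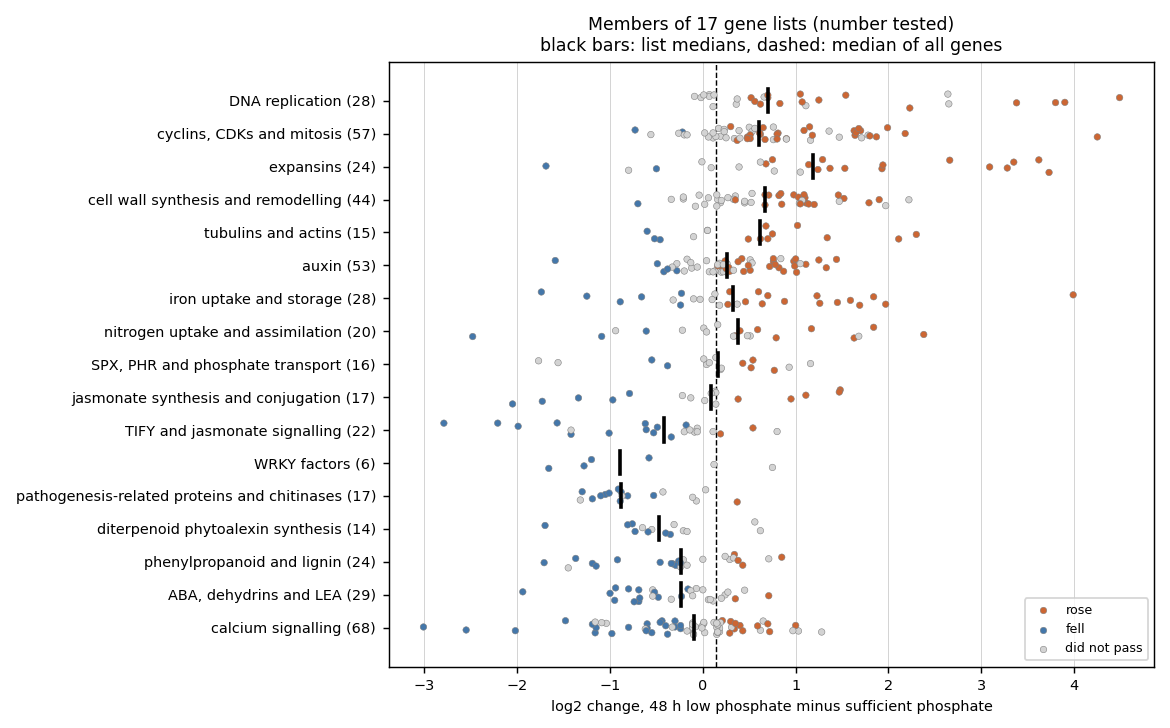
Log2 change at 48 h (horizontal axis) of every measured member of 17 gene lists, coloured by whether it rose, fell or did not pass the test, with list medians as black bars and the median over all genes, 0.14, as a dashed line. Replication, cell-cycle, expansin and cell wall lists lie mostly to the right, and TIFY, WRKY and defence protein lists mostly to the left.

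Most genes for defence proteins fell. Of 17 pathogenesis-related protein, chitinase and NPR-family genes 10 fell (58.8% against 17.2% of all genes), 1 rose and 6 did not pass, with a median change of -0.88, and 10 also fell after quantile normalization. The chitinases OsChia1c, OsChia2a and OsChia1a, which cut fungal cell walls, led the list. OsChia1c read 5595 and 5422 in the control and 2162 and 2324 at 48 h and fell by 1.30 ± 0.07 (adjusted p = 6.64e-08). OsChia2a read 19568 and 20372 against 9020 and 8480 and fell by 1.19 ± 0.05, and OsChia1a fell by 1.10 ± 0.05. PBZ1, a PR10 protein used as a marker of induced resistance, read 25222 and 25620 against 14290 and 12743 and fell by 0.91 ± 0.08. OsNH1, the rice counterpart of the salicylate receptor NPR1, fell by 0.53 ± 0.05. In these genes every control array was above every 48 h array. The rise of NH3, by 0.37 ± 0.11, ended as a call without any 1 of the 4 arrays (adjusted p 0.0527 to 0.167). The call of Chib3H-h, which fell by 1.05 ± 0.36, also ended without control replicate 1 (0.131) or 2 (0.158) or 48 h replicate 1 (0.391).

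Of the WRKY factors, DNA-binding regulators of defence, 6 were matched by name. Of these 4 fell (66.7% against 17.2% of all genes) and 0 rose. OsWRKY62 read 669.3 and 843.1 against 241.7 and 234.0 and fell by 1.66 ± 0.18 (adjusted p = 2.16e-05). OsWRKY71 read 1682 and 1700 against 720.5 and 749.6 and fell by 1.20 ± 0.07 (adjusted p = 1.52e-07), while OsWRKY24 fell by 1.28 ± 0.19 and OsWRKY51 by 0.58 ± 0.09. OsWRKY76 changed by 0.75 ± 0.35 and did not pass.

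Jasmonate signalling genes fell more often than they rose. Of 22 TIFY-family genes, jasmonate receptors and partners 12 fell (54.5% against 17.2% of all genes), 2 rose and 8 did not pass. The median change was -0.42. OsTIFY11d, a repressor that jasmonate itself induces, read 3599 and 3955 in the control and 1241 and 1294 at 48 h and fell by 1.57 ± 0.07 (adjusted p = 1.78e-08). OsTIFY11c read 1043 and 1040 against 382.0 and 396.8 and fell by 1.42 ± 0.10, and the bright OsTIFY10b read 14062 and 14322 against 9306 and 9287 and fell by 0.61 ± 0.06. OsJAMyb, a MYB factor named for its response to jasmonate, read 820.5 and 1503 against 244.9 and 236.3 and fell by 2.21 ± 0.29 (adjusted p = 1.19e-04). OsbHLH148, a partner of the repressors, fell by 1.01 ± 0.20. Every control array of these genes was above both 48 h arrays. The receptor gene OsCOI1b fell by 0.18 ± 0.05 and its relative OsCOI1a rose by 0.19 ± 0.05, and the call of OsCOI1a ended without control replicate 2 (0.0721) or 48 h replicate 1 (0.0549) or 2 (0.0562). The call of OsTIFY2a, the other rise at 0.54 ± 0.13, ended without control replicate 2 (0.068), and the list then held 0 rises. OsTIFY9 fell by 2.79 ± 0.71, and its change was -4.36 or -1.21 without 48 h replicate 1 or 2, and its call ended without control replicate 1 (0.0589).

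In the list of jasmonate synthesis and conjugation genes 5 of 17 fell and 5 rose (29.4% each), against 17.2% and 28.5% of all genes. The median change was 0.09. Allene oxide synthase commits a fatty acid hydroperoxide to jasmonate, and 3 of its 4 measured genes fell. AOS2 read 1039 and 1031 in the control and 439.0 and 382.9 at 48 h and fell by 1.34 ± 0.11 (adjusted p = 3.58e-06), AOS3 by 1.73 ± 0.20 and AOS1 by 0.79 ± 0.11, while AOS4 changed by 0.13 ± 0.08 and did not pass. The lipoxygenases of the list, which make fatty acid hydroperoxides, went both ways. LOX3 went from 531.1 and 584.4 to 1652 and 1440, a rise of 1.47 ± 0.12 (adjusted p = 1.97e-06). LOX1.1 rose by 1.48 ± 0.18, and CM-LOX2 fell by 0.97 ± 0.17. Which of these lipoxygenases serve jasmonate synthesis was not tested. OsJAR1, which joins jasmonate to isoleucine to make the active form, read 572.6 and 321.3 against 930.9 and 926.8 and rose by 1.11 ± 0.21 (adjusted p = 0.00156). The reductases OsOPR8 and OsOPR1, which rose by 0.95 ± 0.26 and 0.38 ± 0.12, lost their calls without either 48 h array, which left 3 rises. OsOPR6 fell by 2.05 ± 0.67, and that call ended without any 1 of the 4 arrays (adjusted p 0.0829 to 0.205).

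**Figure D4:**
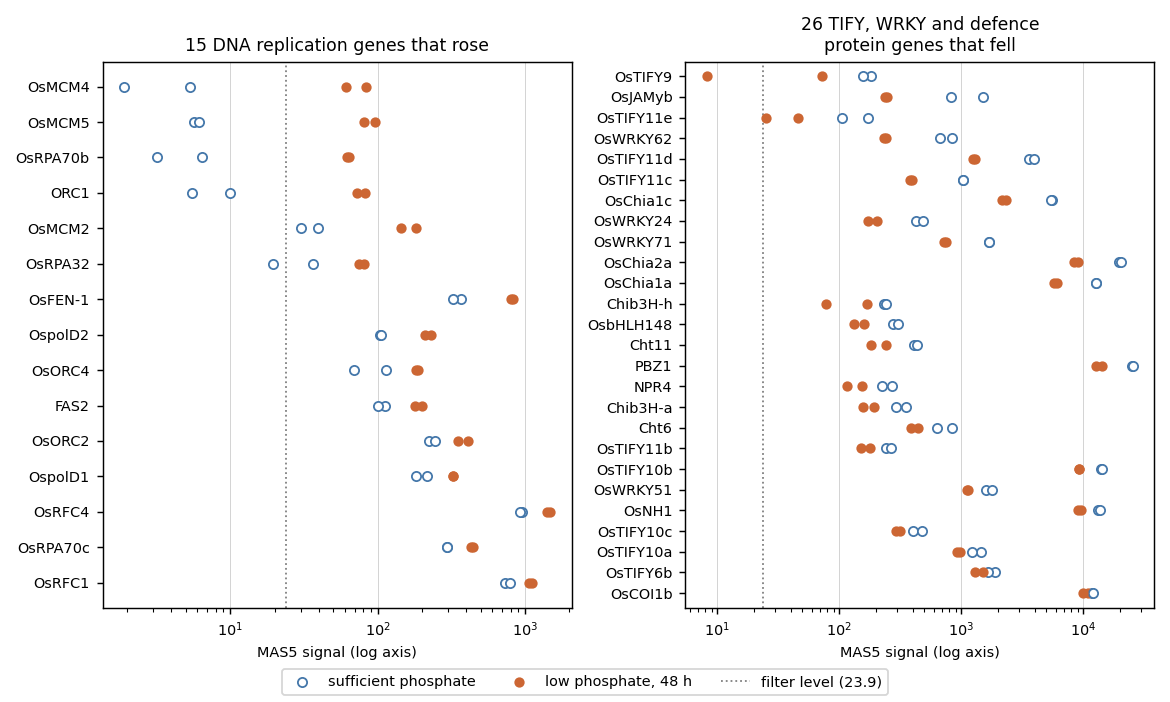
MAS5 signal (horizontal log axis) of the 15 DNA replication genes that rose (left) and of the 26 TIFY, WRKY and defence protein genes that fell (right) on each control array (open circles) and 48 h array (filled circles). Both control arrays lie under the filter level of 23.9 for 4 of the replication genes, and OsChia2a drops from 19568 and 20372 to 9020 and 8480.

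Genes of diterpenoid phytoalexins, antifungal compounds of rice, fell in part. Of 14 genes 7 fell (50% against 17.2% of all genes) and 0 rose, with a median change of -0.47. CYP71Z7 read 1796 and 2055 against 496.1 and 701.2 and fell by 1.70 ± 0.21 (adjusted p = 7.00e-05), and CYP701A8 and CYP99A3, oxidases of the same pathways, fell by 0.76 ± 0.11 and 0.59 ± 0.09. The call of the synthase OsCPS2 (fell by 0.73 ± 0.21) ended without control replicate 2 or without either 48 h array. The call of the synthase OsKSL7 (fell by 0.81 ± 0.26) ended without any 1 of the 4 arrays, where its change was -0.73 to -0.89. It also ended with no filter on low signal (adjusted p in limma 0.0586). Fewer genes of the list fell without control replicate 2 or either 48 h array. Among 24 phenylpropanoid and lignin genes 11 fell (45.8%) and 4 rose (16.7%) as deposited, against 17.2% and 28.5% of all genes. The laccases LAC24 and LAC19, enzymes that couple lignin units in the wall, fell most: LAC24 read 4751 and 4677 against 1516 and 1371 and fell by 1.71 ± 0.07 (adjusted p = 7.91e-09), and LAC19 fell by 1.37 ± 0.14. The 4-coumarate ligases went apart, Os4CL5 falling by 1.15 ± 0.11 and Os4CL1 rising by 0.85 ± 0.08. Without 48 h replicate 2, 2 genes of the list rose.

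The abscisic acid and calcium lists each held more falls than rises as deposited. In them 44.8% and 30.9% of genes fell, against 17.2% of all genes. Among probe sets with mean signals from 3018.1 upward, 44.5% fell as deposited, and the part of brightness in these lists was not tested. Of 29 abscisic acid, dehydrin and LEA genes 13 fell and 2 rose, with a median of -0.23. OsABA8ox2, which breaks abscisic acid down, read 2496 and 2461 against 1281 and 1312 and fell by 0.94 ± 0.09 (adjusted p = 1.05e-05). OsBZIP23, a transcription factor of that pathway, fell by 0.80 ± 0.06, the LEA gene OsLEA19 by 1.0 ± 0.10, and salT, a lectin gene induced by salt, read 42328 and 42377 against 22434 and 21448 and fell by 0.95 ± 0.05. The dehydrin gene OsDhn1 went the other way, from 2838 and 2816 to 4419 and 4851, a rise of 0.71 ± 0.08.

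The cold-response factor DREB1A read 836.0 and 906.1 in the control and 204.8 and 209.6 at 48 h and fell by 2.07 ± 0.17 (adjusted p = 2.45e-06). OsDREB1B.1 read 273.2 and 282.9 against 55.7 and 5.7 and fell by 3.96 ± 0.81 (adjusted p = 0.0026), and its change was -5.61 or -2.32 without 48 h replicate 1 or 2. DREB1G fell by at least 1.71 (adjusted p = 8.82e-04). Of the 11 DREB and ERF genes 3 fell (27.3% against 17.2% of all genes), 1 rose and 7 did not pass, with a median of 0.07. The rise, of SHAT1 (0.26), ended without any 1 of the 4 arrays compared, and 1 gene of the list fell with the filter at the 60th percentile. Of 68 calcium-signalling genes 21 fell (30.9%) and 11 rose (16.2%), against 17.2% and 28.5% of all genes. Besides the calmodulin-like genes above, OsCAM61 read 1548 and 1475 against 513.6 and 569.3 and fell by 1.48 ± 0.11, and CML9 fell by 1.19 ± 0.25. The rises were smaller: the kinase genes OsCIPK32, OsCIPK02 and OsCDPK18 rose by 0.72 ± 0.08, 0.70 ± 0.08 and 0.59 ± 0.10, and another probe set of each did not pass.

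Iron and nitrogen genes rose in part. Of 28 iron uptake and storage genes 15 rose (53.6%) and 6 fell (21.4%), against 28.5% and 17.2% of all genes. Their median was 0.33. The rises included the enzymes of phytosiderophore synthesis, by which grasses capture ferric iron. The nicotianamine synthase OsNAS2 went from 5071 and 5233 to 15726 and 15213, a rise of 1.59 ± 0.05 (adjusted p = 6.01e-10), and OsNAS3 from 1783 and 1870 to 7332 and 7023, a rise of 1.97 ± 0.05 (adjusted p = 5.04e-10). OsNAAT1, the aminotransferase of the next step, rose by 1.69 ± 0.04. In these 3 genes both 48 h arrays were far above both control arrays. The uptake transporter osysl15 rose by 0.70 ± 0.05 and OsYSL14 by 1.84 ± 0.19. OsIRT2, a ferrous iron transporter, read 577.7 and 772.0 against 206.7 and 192.5 and fell by 1.74 ± 0.30, and OsYSL13 and OsNramp2 fell by 1.25 ± 0.06 and 0.89 ± 0.07.

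Of 20 nitrogen genes 8 rose (40%) and 3 fell (15%), against 28.5% and 17.2% of all genes, with a median of 0.38. The glutamine synthetases, which bind ammonium to glutamate, went apart: OsGS1;2 went from 1638 and 1577 to 7911 and 8870, a rise of 2.38 ± 0.06 (adjusted p = 2.39e-10), OsGS2 rose by 0.79 ± 0.07, and OsGS1;3 fell. The ammonium transporter OsAMT1;2 went from 463.3 and 450.3 to 1426 and 1403, a rise of 1.63 ± 0.10 (adjusted p = 1.68e-07). The glutamate dehydrogenases, which release ammonium from glutamate, fell: OsGDH2 read 6924 and 7070 against 3307 and 3245 and fell by 1.09 ± 0.05, and OsGDH1 fell by 0.61 ± 0.06.

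Hormone genes of growth were mixed. Of 53 auxin genes 25 rose (47.2%) and 5 fell (9.43%), against 28.5% and 17.2% of all genes, with a median of 0.26. The response genes IAA31, IAA12 and IAA13 rose by 1.44 ± 0.09, 1.33 ± 0.11 and 1.25 ± 0.05. IAA13, for instance, went from 3879 and 3940 to 9352 and 9223 (adjusted p = 1.39e-08). The auxin response factor OsARF16 went from 598.8 and 613.5 to 1168 and 1260, a rise of 1.0 ± 0.09. The efflux carrier OsPIN4 fell by 1.59 ± 0.45, a call that ended without control replicate 2 (0.115) or 48 h replicate 1 (0.109), and 3 auxin genes fell in each of those fits. Of 28 cytokinin genes 8 rose and 7 fell (28.6% and 25%, against 28.5% and 17.2% of all genes), with a median of 0.00. Fewer of them rose without control replicate 1 or 48 h replicate 2. LOGL9 and LOGL3, which release active cytokinin, fell by 1.40 ± 0.17 and 0.91 ± 0.06. Of 22 gibberellin and brassinosteroid genes 8 rose (36.4%) and 3 fell (13.6%), against 28.5% and 17.2% of all genes. The brassinosteroid receptor OsBRI1 rose by 0.92 ± 0.11 and the kinase OsGSK2 by 1.03 ± 0.09. Without 48 h replicate 2 fewer genes of this list rose.

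The phosphate genes moved little as a list. Of 16 measured SPX, PHR and phosphate transport genes 4 rose and 2 fell (25% and 12.5%), against 28.5% and 17.2% of all genes. Their median was 0.16, beside a median of 0.14 over all genes. OsSPX1 read 864.4 and 798.2 in the control and 1207 and 1174 at 48 h, with both 48 h arrays above both control arrays. OsPHR2, the main activator, read 2034 and 2112 against 2724 and 2845, a rise of 0.43 ± 0.06 that its other probe set shared at 0.87. The uptake transporter OsPht1;1 read 3310 and 3526 against 2253 and 2401 and fell by 0.55 ± 0.06. The other rises, OsSPX2 (0.77 ± 0.23) and OsPht1;8 (0.54 ± 0.13), and the fall of OsPHR3 (0.38 ± 0.10) each lost their call without at least 1 array: OsSPX2 and OsPht1;8 without control replicate 2 (0.209 and 0.0786) or 48 h replicate 2 (0.111 and 0.0603), OsSPX2 also without 48 h replicate 1 (0.0803), and OsPHR3 without control replicate 1 (0.11) or 48 h replicate 1 (0.0983). The list held 2 rises without control replicate 2 or 48 h replicate 2. Among the members that did not pass, OsPht1;2, OsPht1;4, OsPHO1;2, OsSPX4 and OsPHR1 changed by 0.01 to 0.20. The dim members OsPht1;3, OsPht1;6, OsPht1;11, OsSPX5 and OsPHO1;3 had standard errors of 0.63 to 1.03 and did not pass either, although OsPht1;6 passed without control replicate 1 (2.79, adjusted p = 0.0385).

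Of 5 enzymes that spare phosphate in membranes, OsMGD1, which makes the galactolipids of plastids, rose by 0.70 ± 0.08 and kept its call under every alternative run. OsMGD3, of the same enzyme family, rose by 0.27 ± 0.09 and lost its call without control replicate 1 (0.244) or 2 (0.0623) or 48 h replicate 2 (0.351), among others. OsMGD2 and PLD2 changed by 0.10 ± 0.70 and 0.06 ± 0.07. PLD1 fell by 0.47 ± 0.04, and that call ended with quantile normalization (0.0817).

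Seed, tissue and low-oxygen genes were measured as well. Of 10 measured seed reserve and germination genes 3 fell (30% against 17.2% of all genes) and 0 rose. Their median was -0.55 (0.11 with no filter on low signal). Their summed signal was 10890 and 10469 in the control and 6533 and 6475 at 48 h. Most of that drop was AMY3D, the amylase gene described above, which is a member of this list. GLUA-2, a glutelin stored in the endosperm, read 2486 and 2323 against 1643 and 1679 and fell by 0.53 ± 0.07, and the amylase gene AMY1.5 fell by 0.57 ± 0.12. The summed signal of 9 root-specific genes was 29003 and 29885 in the control and 32342 and 31352 at 48 h. That of 19 photosynthesis genes was 163327 and 167318 against 144542 and 138276 as deposited, although 8 of them rose and 4 fell. Their median change was 0.21, and the direction of this list turned with the scaling, so none is read from the sum. The part of these tissue markers in the results was not tested. Of 10 low-oxygen genes 4 rose (40%) and 2 fell (20%), against 28.5% and 17.2% of all genes, with a median of 0.05. The rises included Adh2, an alcohol dehydrogenase, from 3440 and 3542 to 9083 and 8835 (1.36 ± 0.05), and OsSUS1, a sucrose synthase, from 2217 and 2110 to 5843 and 5643 (1.41 ± 0.05). The 2 falls of that list, OsSUS4 (0.39 ± 0.11) and OsSUS2 (0.14 ± 0.04, but 0.27 higher at 48 h with quantile normalization), lost their calls without control replicate 2 (0.058 and 0.107) or 48 h replicate 1 (0.0921 and 0.0798), and OsSUS4 also without control replicate 1 (0.091) or 48 h replicate 2 (0.0659).

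The second comparison, 48 h against the mean of 6, 24 and 72 h, left the control mean out of the contrast, although the control arrays still entered the filter and the estimate of the spread. It found 6018 probe sets higher at 48 h (17.5%) and 4442 lower (12.9%), or 30.4% together, and with 1 probe set per gene 22% were higher and 18.9% lower. The split depended on scaling: when each array was centred on its median, 10817 were higher and 1804 lower (85.7% of calls higher against 57.5%), and the median difference moved from 0.04 to 0.27. The 72 h arrays had the highest median signals, 69.3 and 68.5. Without them 6281 probe sets were higher and 4696 lower, and with only the low-phosphate groups in the fit 5857 were higher and 4408 lower. Without 48 h replicate 1 or 2, 3791 or 3620 were higher. Of the probe sets that rose against the control, 2554 were also higher than the other times and 805 lower, and of those that fell, 1872 were also lower and 667 higher.

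Most replication and expansin genes did not pass in this comparison. Over all genes 22% were higher and 18.9% lower. Of 28 replication genes 3 were higher and 1 lower, and of 24 expansins 6 were higher and 5 lower; with each array centred, 10 and 0 of the replication genes and 8 and 3 of the expansins. OsEXPA3 was higher at 48 h, at 929.3 and 842.2 at 48 h against 188.4 to 228.1 at 6 and 24 h and 444.7 and 467.0 at 72 h, a difference of 1.70 ± 0.13 (adjusted p = 1.52e-06). TIFY and jasmonate signalling genes were lower at 48 h than the other times in 13 of 22 cases and higher in 2 (7 and 5 with each array centred). The diterpenoid phytoalexin genes, which had fallen against the control, were higher than the other times in 9 of 14 cases and lower in 0, with each array centred as well. OsKSL4, a synthase of that group, read 256.1 and 251.1 at 48 h and 70.3 to 121.5 on the other 6 low-phosphate arrays, a difference of 1.30 ± 0.21 (adjusted p = 5.01e-04). OsCPS2 read 393.7 and 393.0 at 48 h, above the 87.4 to 227.4 of 6 and 24 h and within the 263.2 and 414.3 of 72 h.

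Clock genes were among those set apart most. Of 7 clock genes 6 were higher than at the other times and 1 lower, also with each array centred or quantile-normalized. OsPRR1, the rice counterpart of the evening gene TOC1, read 2274 and 2262 at 48 h, 406.4 and 511.3 at 6 h, 22.1 and 29.9 at 24 h and 509.1 and 475.9 at 72 h, a difference of 3.66 ± 0.13 (adjusted p = 4.63e-09). Its control arrays read 1607 and 1505. GI read 8006 and 7824 at 48 h against 630.4 and 788.3 at 24 h, while OsLHY, a morning gene, read 2823 and 2907 at 48 h against 12037 and 13107 at 24 h. For these genes the 48 h arrays lay nearest the control arrays and the 24 h arrays farthest from them. OsLHY nevertheless rose against the control by 1.38 ± 0.07 (adjusted p = 4.79e-08). OsPRR95 and OsPRR73 rose by 0.28 ± 0.05 and 0.27 ± 0.05. OsPRR1 rose by 0.54 ± 0.16, a call that ended without any 1 of the 4 arrays (adjusted p 0.0651 to 0.119). The labels give no hour of harvest.

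**Figure D5:**
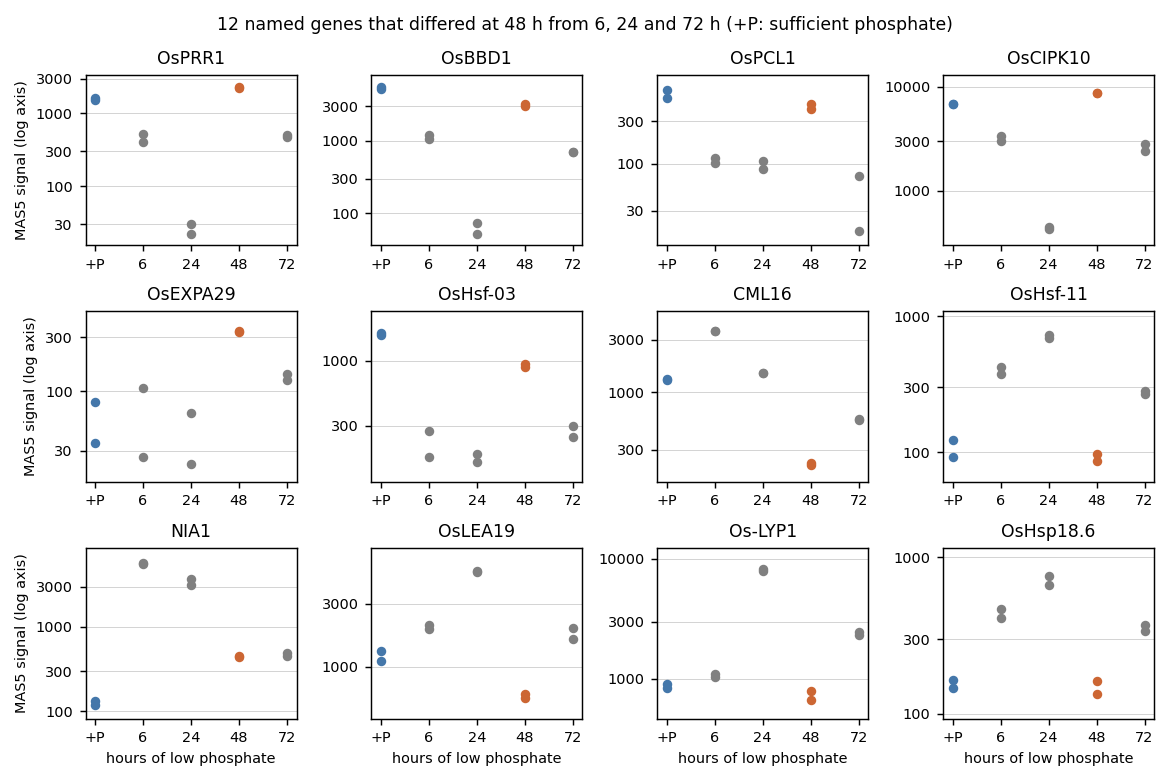
MAS5 signal (vertical log axis) on each array of the sufficient-phosphate control (+P) and of 6, 24, 48 and 72 h of low phosphate, for the 12 named genes with the largest differences between 48 h and the other low-phosphate times. OsPRR1 lies at 2274 and 2262 at 48 h beside 1607 and 1505 in the control and 22.1 and 29.9 at 24 h, and NIA1 at 441.8 and 453.4 beside 5542 and 5700 at 6 h.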

How the data were processed

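The deposited table holds 1 signal intensity per probe set and array on a linear scale, made by the authors with GCOS and MAS5 per the submitters' processing notes, with no version stated. Without the top and bottom 2% of values every array averaged 500.1, so the deposited intensity values had been scaled to 1 target. Of 57258 probe sets, 22436 list 1 gene in GEO's platform annotation, 95 list several and 34727 list none. These give 17905 genes, all found in the RefSeq gene table, and 2459 of them have a published name. No reference genome or sequence table was used here, so no position or sequence is printed and promoter motifs were not searched.

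The test took probe sets whose log2 signal, averaged over 10 arrays, exceeded its 40th percentile (4.579, a signal of 23.9), and 123 control probe sets were left out. Fits with arrays left out kept this filter over all 10 arrays. limma 3.58.1 in R 4.3.3 fitted log2 signals of all 5 groups, with eBayes and an intensity trend (5 residual and 6.5 prior degrees of freedom). Tests were two-sided with Benjamini-Hochberg adjustment over all probe sets tested. With 2 arrays per group, the number of arrays limits the precision, and p-values measure the spread between these arrays.

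Lists hold genes whose name matched a pattern, less 127 false matches dropped by hand, with the brightest tested probe set per gene. Lists can share genes. In some lists 1 passing gene had another probe set that passed in the opposite direction. These were the cell-cycle, aquaporin, phenylpropanoid, photosynthesis, chaperone and antioxidant lists. Named genes were the 12 largest rises and falls of named genes that passed, did not overlap and had signals of at least 200 in the brighter group, up to 5 passing members of each list in each direction, all phosphate genes, and 6 genes in each direction against the other times. Other members were named after their values were seen. If the dimmer group's arrays were both under the filter level, only the brighter group's distance from that level is given, as a lower bound. A rise of that kind passed the filter only through low-phosphate arrays. The comparison, lists and rules were chosen with earlier results of these data known. Alternatives were 2 other filters, an offset of 16, quantile normalization, median centring, no intensity trend, fewer groups, a replicate block, each array left out, the mean of a gene's probe sets and, added after seeing the data, the 72 h arrays left out.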

Additional observations from a re-analysis of the deposited data

Results flagged for a closer look

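Levels at 48 h differed from the mean of 6, 24 and 72 h of low phosphate, by the test of that difference, at 6018 probe sets that were higher and 4442 that were lower. The named genes with the largest differences were chosen by their size, and no explanation was tested.

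Among genes higher at 48 h, OsPRR1, an evening gene of the clock, differed by 3.66 ± 0.13. OsBBD1, a bifunctional nuclease, differed by 3.10 ± 0.11: it read 3044 and 3232 at 48 h, 52.4 and 74.7 at 24 h and 706.7 and 698.8 at 72 h, with 5085 and 5425 in the control. The clock gene OsPCL1 differed by 2.59 ± 0.39, and the kinase gene OsCIPK10, at 8750 and 8706 at 48 h against 432.6 and 452.3 at 24 h, by 2.50 ± 0.06. The expansin gene OsEXPA29 differed by 2.37 ± 0.54, a call that ended without 48 h replicate 1 (adjusted p in limma 0.0553) or 2 (0.0609). The heat stress factor gene OsHsf-03 differed by 2.11 ± 0.16. All 48 h arrays of these genes were above all 6 other low-phosphate arrays, which the rule for naming them required.

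Among genes lower at 48 h, CML16, a calmodulin-like gene, read 225.6 and 218.5 at 48 h and 3625 and 3584 at 6 h, a difference of -2.71 ± 0.06. The heat stress factor gene OsHsf-11 differed by -2.22 ± 0.15. The nitrate reductase gene NIA1 differed by -2.21 ± 0.08, although it had risen against the control by 1.84. Its other probe set changed by -0.59 against the control and did not pass (adjusted p in limma 0.648). The 72 h arrays of NIA1, at 490.7 and 458.2, lay just above the 48 h arrays at 441.8 and 453.4. OsLEA19 differed by -2.14 ± 0.08, Os-LYP1 by -1.91 ± 0.07 and the small heat shock protein gene OsHsp18.6 by -1.71 ± 0.13.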

How the results depend on the processing

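Of 252 called results followed, each for 1 gene in 1 of the 2 comparisons, 180 kept their call and direction under every alternative run on them. Some genes, such as OsEXPA29 and CML16, were followed in both comparisons. With 1 array left out, 4426 to 5422 probe sets rose and 3323 to 3515 fell against the control, and 3620 to 6263 were higher and 2988 to 4527 lower than the other times; median centring gave 10817 and 1804 there. Leaving out 1 array gave 9 to 14 risen replication genes, 1 to 2 fallen cell-cycle genes, 0 risen defence protein genes, 3 to 5 risen jasmonate synthesis genes, 0 to 2 risen TIFY genes and 3 to 5 fallen diterpenoid genes. Quantile normalization gave 2 fallen cell wall genes, 3 fallen aquaporins, 0 risen defence protein genes, 3 risen jasmonate synthesis genes and 1 risen TIFY gene. Without an intensity trend 1 cell-cycle gene fell and 1 TIFY gene rose, and median centring also gave 1 risen TIFY gene. With the mean of a gene's probe sets 1 cell-cycle gene and 2 cell wall genes fell, 0 defence protein genes rose and 1 diterpenoid gene rose. The diterpenoid list held 1 rise with the 60th percentile filter or median centring and 2 with only the 2 groups. The median of the seed list turned to 0.11 with no filter. Quantile normalization turned 11 bright genes upward, at 0.06 for OsTIP2;2, 0.04 for EIL1, 0.27 for OsSUS2, 0.05 for CAB2R, 0.03 for PETE, 0.13 for OsrbcS, 0.02 for RPS21, 0.04 for RPS27AA, 0.16 for RPL30, 0.06 for RPL7A-1 and 0.03 for RPS10. Quantile normalization gives all arrays the same distribution, so with it scaling and a real fall of bright genes cannot be told apart. The causes of these differences between settings were not tested. Replicate numbers in the labels did not pair the arrays: differences between replicates 1 and 2 correlated with r from -0.01 to 0.02 over 10 pairs of groups. With the replicate block 6569 probe sets rose and 4250 fell, and 5912 were higher and 4350 lower than the other times. Signals near the filter level limit the dim replication and phosphate genes, whose standard errors were largest.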

Other observations

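Chaperone genes were mixed at 48 h: of 49 measured 15 fell (30.6%) and 10 rose (20.4%), against 17.2% and 28.5% of all genes. Fewer of them rose without control replicate 1 or 48 h replicate 2. The heat shock protein gene OsHsp23.2 read 413.5 and 471.1 in the control and 1444 and 1391 at 48 h, while the heat stress factor gene OsHsf-21 fell by 1.55. Of 30 catalase and antioxidant enzyme genes 11 fell (36.7%) and 5 rose (16.7%) as deposited. After quantile normalization 4 fell and 10 rose. Of 24 potassium and sodium transport genes 7 rose and 4 fell (29.2% and 16.7%), near the shares over all genes of 28.5% and 17.2%. Fewer of them rose without control replicate 2 or without either 48 h array. The potassium transporter gene OsHAK1 rose by 1.66 ± 0.09. Of 9 ethylene genes 1 rose and 3 fell (11.1% and 33.3%). Of 5 glutathione S-transferase genes 1 rose and 4 fell (20% and 80%), with fewer falls without control replicate 2 or 48 h replicate 1. Of 2 class III peroxidase genes tested, PRX74 rose and the other did not pass.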
